A study of Danio rerio with 8 samples.

Results

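The uncoupling proteins examined here are the zebrafish genes ucp1, ucp2 and ucp3, found by their gene symbols among the 32520 genes counted in the livers of 8 fish. All 3 symbols were present, ucp1 as ENSDARG00000023151, ucp2 as ENSDARG00000043154 and ucp3 as ENSDARG00000091209. Of the 3 genes, ucp1 and ucp2 had enough reads for a test between diets, and ucp3 did not. In the reference gene table used for names, ucp2 and ucp3 lie next to each other on chromosome 10, and ucp1 lies on chromosome 1.

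Uncoupling proteins are carriers of the inner mitochondrial membrane and belong to the same family as the ADP/ATP and dicarboxylate carriers. In mammals, UCP1 lets protons flow back into the matrix in brown fat, which releases heat in place of ATP. UCP2 is found in many mammalian tissues, where it has been linked to the export of dicarboxylates such as malate and oxaloacetate and to the control of reactive oxygen, and in the mammalian liver much of it is found in Kupffer cells, the resident macrophages. UCP3 is best known from mammalian skeletal muscle. Fish have no brown fat, and in the common carp the liver is a main site of ucp1 expression.

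RNAseq was run on the whole liver of 8 females aged 36 wk, of which 4 had been raised on the Control diet and the other 4 on the Whole Egg diet, and each fish gave 1 library. Both diets were given from day 21 at about 6% of body weight per day in 2 feeds. The Control diet drew its protein from several sources. In the Whole Egg diet a dried whole egg product took the place of about 50% of the protein. The egg product also brought in egg lipid, so that egg protein and egg lipid cannot be told apart. As formulated, the Whole Egg diet held more total lipid and energy and less wheat starch than the Control diet. These differences cannot be told apart from the egg source either. The fish carry the numbers 1 to 4 within each diet, as in Control-1 and Whole Egg-1, and the labels do not give the tank of each fish.

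Each library held 16916307 to 35871236 reads on genes, with a median of 21073643.5. Levels are given in CPM, read counts scaled to a common library total after TMM normalization, and the TMM factors ran from 0.682 in Control-4 to 1.72 in Whole Egg-2. Hepatocyte marker genes summed to 19902 to 31182 CPM in Control livers and to 8340 to 27318 CPM in Whole Egg livers, and Whole Egg-2 had the lowest sum. Whole Egg-2 also had 416 CPM of ovary marker genes, against 3.64 to 49.7 CPM in the other fish, and Control-2 had 98.7 CPM of intestine marker genes, against 0.326 to 5.67 CPM in the other fish. Exocrine pancreas marker genes summed to 302 to 1669 CPM in Control livers and to 136 to 1246 CPM in Whole Egg livers. Control-2 had the highest of these sums. In whole tissue, fewer cells of a type and less RNA per cell cannot be told apart.

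ucp2, the dicarboxylate-linked member, was present at a low level in every liver. In Control livers its level was 9.34 CPM in Control-1, 5.98 CPM in Control-2, 6.65 CPM in Control-3 and 7.15 CPM in Control-4. In Whole Egg livers it was 5.80 CPM in Whole Egg-1, 17.4 CPM in Whole Egg-2, 16.1 CPM in Whole Egg-3 and 17.9 CPM in Whole Egg-4. Thus 3 of the 4 Whole Egg fish lay above every Control fish, and Whole Egg-1 lay below all of them. These levels rested on 104 to 210 reads in Control livers and on 118, 593, 394 and 297 reads in Whole Egg fish 1 to 4. The 95% Poisson interval of Whole Egg-1, 4.80 to 6.95 CPM, did not reach that of any other Whole Egg fish, the nearest being 14.5 to 17.7 CPM in Whole Egg-3. It overlapped the intervals of Control-2, Control-3 and Control-4, but not that of Control-1, 7.99 to 10.9 CPM. These intervals cover counting error only.

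The mean level of ucp2 was 7.28 ± 1.45 CPM (SD, n = 4) on the Control diet and 14.3 ± 5.70 CPM (SD, n = 4) on the Whole Egg diet. The fold change was 1.96, or 0.97 ± 0.35 (SE) on the log2 scale. In the edgeR quasi-likelihood test over 13379 genes, ucp2 had an unadjusted p of 0.0213 and an adjusted p of 0.810, above the threshold of 0.1. An unadjusted p under 0.05 was reached by 3.9% of all genes tested, and ucp2 stood at rank 106 by p and at rank 1177 by the size of the fold change. No gene had an adjusted p under 0.1 in edgeR (0% of genes tested, with 522 genes at an unadjusted p under 0.05) or in DESeq2. A two-sided exact permutation test of log2 CPM over all 35 distinct splits of the fish gave p = 0.143 for ucp2, and 0.286 after adjustment over ucp1 and ucp2. The smallest p this test allows is 0.0286.

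ucp1, the thermogenic member in mammals, had far more reads than ucp2 in every liver, 12598 to 47497 per fish. Its level was 809 CPM in Control-1, 2153 CPM in Control-2, 641 CPM in Control-3 and 1454 CPM in Control-4. On the Whole Egg diet it was 1553 CPM in Whole Egg-1, 528 CPM in Whole Egg-2, 1269 CPM in Whole Egg-3 and 759 CPM in Whole Egg-4. The ranges of the diets overlapped, and the fish within each diet differed several-fold. The means were 1264 ± 688 CPM (SD, n = 4) on the Control diet and 1027 ± 468 CPM (SD, n = 4) on the Whole Egg diet. The difference was −0.30 ± 0.47 (SE) on the log2 scale, with an adjusted p of 0.891 in edgeR, and the exact permutation test gave p = 0.629. Control-2 had the highest level, and also the most hepatocyte, intestine and pancreas marker RNA of all fish, and their part in it was not tested. Without that fish the log2 difference was 0.10 ± 0.46 (SE), so its sign rested on Control-2.

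ucp3, the muscle member in mammals, was at the edge of detection. On the strand used for counting there were 2 reads in Control-2, 2 reads in Whole Egg-3 and 0 reads in the other 6 fish. The 2 reads are 0.0906 CPM in Control-2 and 0.0815 CPM in Whole Egg-3, and with 3 counts taken as the limit that a count of 0 allows, the level could be up to 0.0878 CPM in Whole Egg-2, the lowest limit, and up to 0.206 CPM in Control-4, the highest. Reads at the ucp3 locus on the opposite strand numbered 7 in Control-3, 2 in Control-4, 4 in Whole Egg-1, 1 in Whole Egg-2, 5 in Whole Egg-3 and 3 in Whole Egg-4. In 6 of the 8 fish the opposite strand therefore held more reads than the strand of the gene, whereas ucp2 had at most 1 read on its opposite strand. A difference in ucp3 between diets was not detectable at this depth. Skeletal muscle marker genes summed to 0.0492 to 0.894 CPM, highest in Control-4.

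**Figure D1:**
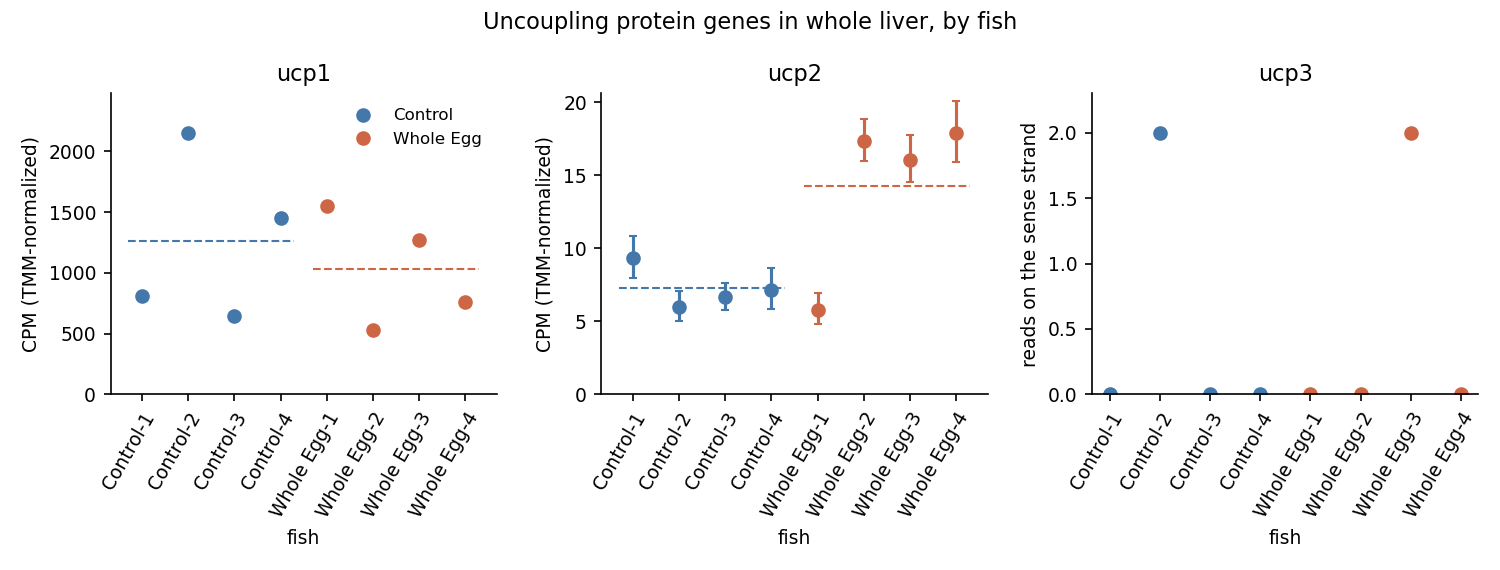
Level of ucp1 and ucp2 in CPM and reads of ucp3 on its own strand, in each liver of both diets. Dashed lines are diet means (n = 4 fish), and the bars on ucp2 are 95% Poisson intervals. Whole Egg-1, at 5.80 CPM, lies with the Control fish for ucp2, and ucp3 has 2 reads in each of 2 fish.

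The study also compared 6 fish after leaving out Control-4 and Whole Egg-1, which overlapped in its principal component plot, and ucp2 was among the genes it took from those fish. This comparison was therefore no independent evidence on ucp2 and is given as a description. In these fish the level of ucp2 was 7.32 ± 1.78 CPM (SD, n = 3) on the Control diet and 17.1 ± 0.943 CPM (SD, n = 3) on the Whole Egg diet, and the diets did not overlap. The Whole Egg fish lay above the Control fish for 4.94% of the 8195 genes tested, and the diets did not overlap in either direction for 11.3%. The fold change of ucp2 was 2.43, or 1.28 ± 0.26 (SE) on the log2 scale, with rank 2 by p. The adjusted p of ucp2 was 0.798 in edgeR and 0.000735 in DESeq2, so that the gene was called by DESeq2 and not by edgeR. edgeR called 0 genes (0%, with 496 genes, or 6.05%, at an unadjusted p under 0.05), and DESeq2 called 60 of 6911 genes (0.868%). The threshold here was an adjusted p under 0.1 together with a log2 fold change beyond 0.8 in either direction. The log2 difference of ucp1 over these fish was −0.47 ± 0.53 (SE), with an adjusted p of 0.838 in edgeR, and it was 0.26 without Control-2. By RT-PCR on RNA of sequenced females, shown with the same fish left out, the study saw a similar trend in ucp2. That trend therefore did not include Whole Egg-1, the Whole Egg fish with the lowest ucp2, and came from the selected fish. With more females added, and in males, the study found no difference in ucp2 between these diets.

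The other comparison of the study left out Control-2 and Whole Egg-2, the fish that stood apart in its plot. ucp2 was then 7.71 ± 1.43 CPM (SD, n = 3) on the Control diet and 13.3 ± 6.52 CPM (SD, n = 3) on the Whole Egg diet. The log2 difference of ucp2 was 0.78 ± 0.42 (SE), with an adjusted p of 0.999 in edgeR, and the exact permutation test gave p = 0.4, where the smallest possible is 0.1. An adjusted p under 0.1 was reached by 0% of 13267 genes in edgeR (281, or 2.12%, at an unadjusted p under 0.05) and by 2 genes in DESeq2. ucp1 was here higher on the Whole Egg diet, by 0.31 ± 0.38 (SE) on the log2 scale, with an adjusted p of 0.999 in edgeR. The sign of the ucp1 difference thus turned with the choice of fish, while that of ucp2 was positive in all 3 comparisons, which share most of their fish. When each of the 8 fish was left out in turn, the log2 difference of ucp2 ran from 0.84 without Whole Egg-4 to 1.22 ± 0.22 (SE) without Whole Egg-1.

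**Figure D2:**
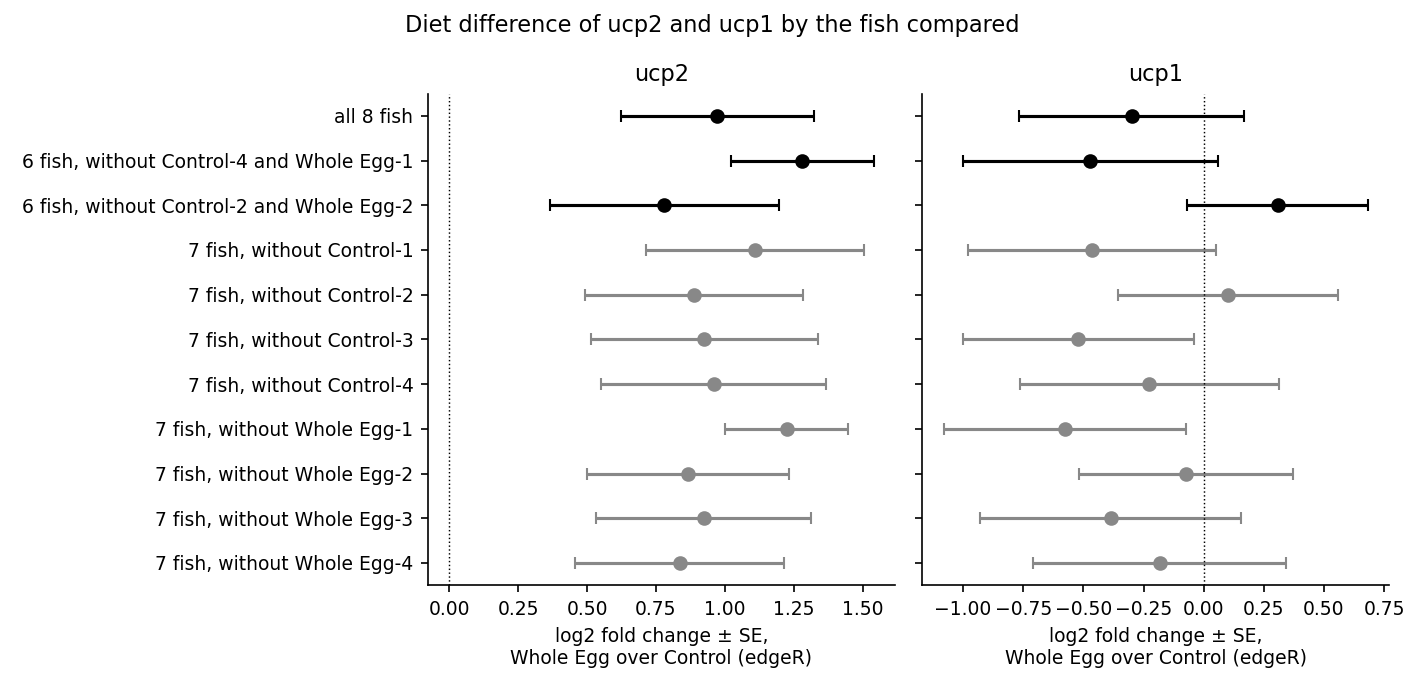
Log2 fold change of ucp2 and ucp1, Whole Egg over Control, with SE derived from the edgeR test, for all 8 fish, for both sets of 6 fish (black) and with each fish left out in turn (grey). The ucp2 values run from 0.78 to 1.28 and lie to the right of 0, and the ucp1 values lie on both sides of 0.

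Comparing ucp2 with its paralog inside each fish removes the need for normalization. In Control livers there were 86.7 reads of ucp1 per read of ucp2 in Control-1, 360 in Control-2, 96.4 in Control-3 and 203 in Control-4. In Whole Egg livers the ratio was 268 in Whole Egg-1, 30.4 in Whole Egg-2, 79.0 in Whole Egg-3 and 42.4 in Whole Egg-4. Reads were not divided by gene length, so these ratios do not compare molecules of ucp1 and ucp2, but they can be compared between fish. The 3 lowest ratios were all in Whole Egg fish, and Whole Egg-1 had the second highest of all. The mean log2 ratio of ucp2 to ucp1 was −7.29 ± 0.97 (SD, n = 4) on the Control diet and −6.17 ± 1.38 (SD, n = 4) on the Whole Egg diet. The diet effect on ucp2 was thus 1.12 higher than that on ucp1 on the log2 scale. A two-sided exact permutation test of the diets gave p = 0.229 for this difference, and the smallest p it allows is 0.0286. Of 3 planned pairs of uncoupling proteins, only ucp2 against ucp1 could be tested, since ucp3 had too few reads.

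rpl13a, a ribosomal protein gene that the study used as its RT-PCR reference, had 503 ± 125 CPM (SD, n = 4) on the Control diet and 392 ± 118 CPM (SD, n = 4) on the Whole Egg diet. Its log2 difference was −0.36 ± 0.31 (SE), with an adjusted p of 0.829 in edgeR. Per 100 reads of rpl13a, ucp2 had 1.77 reads in Control-1, 1.65 in Control-2, 1.44 in Control-3 and 1.09 in Control-4. On the Whole Egg diet it had 1.31 reads in Whole Egg-1, 7.70 in Whole Egg-2, 3.99 in Whole Egg-3 and 3.59 in Whole Egg-4. Relative to rpl13a as well, Whole Egg-1 was the 1 Whole Egg fish among the Control values. The mean log2 ratio of ucp2 to rpl13a was 1.24 higher on the Whole Egg diet, and the two-sided exact permutation test gave p = 0.114. Without Whole Egg-1 the difference was 1.71 and p = 0.0286, the smallest the exact permutation test allows, and that fish was left out with its ucp2 level known. For ucp1 the difference relative to rpl13a was 0.12, with p = 0.886 in the exact permutation test.

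**Figure D3:**
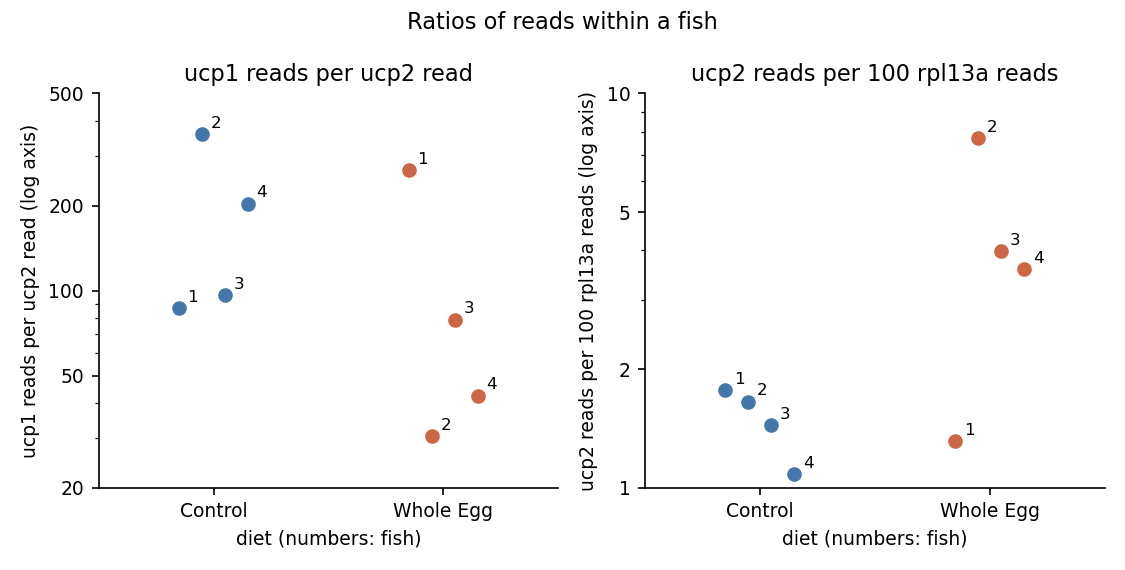
Reads of ucp1 per read of ucp2 (left) and reads of ucp2 per 100 reads of rpl13a (right) in each liver, on log axes. Each point is a fish with its number beside it. Whole Egg-1 lies among the Control fish in both panels, at 268 and 1.31.

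The genes next to ucp2 on chromosome 10 were looked at after its values had been seen. rsf1b.1, beyond ucp3, had a log2 difference of 0.31 ± 0.22 (SE, adjusted p = 0.812 in edgeR). On the other side, dnajb13 had at most 1 read per fish, mrpl48, a mitochondrial ribosomal protein gene, had a log2 difference of 0.05 ± 0.41 (SE), and rab6a, a small GTPase gene of Golgi traffic, had 0.12 ± 0.19 (SE). None of the 3 neighbors tested passed the threshold.

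Genes whose level followed that of ucp2 across the 8 fish were ranked by Pearson's r of log2 CPM, among genes with a symbol and a mean of at least 5 CPM. They were picked for this correlation and share with ucp2 the same libraries and depth, so r is a description. The 10 genes with the highest r were kctd10 (0.97), jtb (0.93), armc1 (0.92), hiat1a (0.90), usp44 (0.89), tmem184a (0.88), zfand5b (0.88), csnk1db (0.87), znf236 (0.87) and crp2 (0.87). kctd10, an adaptor of cullin ubiquitin ligases, had 8.57 to 9.72 CPM in Control livers, 8.70 CPM in Whole Egg-1 and 11.7 to 12.6 CPM in the other 3 Whole Egg fish. Whole Egg-1 lay within the Control range for kctd10. For ucp2 it lay below the Control range, by less than the counting error. The other 3 Whole Egg fish lay above every Control fish, as for ucp2, over a narrower range. armc1, whose human protein takes part in mitochondrial distribution, had 5.08 to 5.99 CPM in Control livers and 6.05, 8.20, 10.2 and 9.16 CPM in Whole Egg fish 1 to 4. The diets did not overlap for armc1, as for 2.14% of all genes tested, and its log2 difference was 0.65 ± 0.22 (SE, adjusted p = 0.810 in edgeR). zfand5b, whose mouse counterpart stimulates the proteasome, had 6.94 to 8.87 CPM in Control livers and 5.11, 33.7, 24.6 and 14.3 CPM in Whole Egg fish 1 to 4. crp2 encodes a C-reactive protein, a plasma pentraxin, and had 15.6 to 30.7 CPM in Control livers and 17.3, 89.3, 45.3 and 37.1 CPM in Whole Egg fish 1 to 4. usp44 is a deubiquitinase gene and csnk1db a casein kinase gene, and both had their lowest Whole Egg value in Whole Egg-1, at 5.06 and 19.4 CPM.

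Correlations of this size were common in these 8 fish. The 10th highest r of ucp2 was 0.87, the median of that value over 5548 genes was 0.94, and 87.4% of the genes had a higher one. The ranking moved with the fish and the measure. Of the 10 genes, 3 were also in the top 10 by Spearman's rho, 4 without Whole Egg-2, 1 when the diet means were first subtracted, and 3 to 7 when each fish was left out in turn. For ucp1 the highest r were those of dusp7 (0.95), a MAP kinase phosphatase gene, apoa4b.1 (0.94), an apolipoprotein A-IV gene, and shc1 (0.94), a signaling adaptor gene. ucp3 had too few reads for such a ranking.

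The 5 genes with the lowest r were stau1 (−0.95), an RNA-binding protein gene, ND4 (−0.94), a complex I subunit encoded on the mitochondrial DNA, nrd1b (−0.94), a peptidase gene, cyp46a1.4 (−0.94), a sterol hydroxylase gene, and lclat1 (−0.93), an acyltransferase gene of cardiolipin remodeling. The 5th lowest r over all 5548 genes had a median of −0.94, so these values too were common. Of the 5 genes, 0 were also among the lowest 5 by Spearman's rho, without Whole Egg-2 or after subtraction of the diet means. With each fish left out in turn, 0 to 3 of the 5 genes stayed among the lowest 5. ND4 had 571 to 611 CPM in Control livers and 667, 369, 428 and 411 CPM in Whole Egg fish 1 to 4. Whole Egg-1, the fish with the least ucp2, had the most ND4, and the other 3 Whole Egg fish lay below all Control fish. The 13 genes of the mitochondrial DNA, ND4 included, were then examined as a list, chosen after ND4 had been seen. All 13 had a negative r with ucp2, from −0.94 to −0.46 with a median of −0.74. Of the 13379 genes tested, 6686 had a negative r. The value of −0.94 was that of ND4, which had been picked for its r, and ND5 was next at −0.93. After subtraction of the diet means the median r was again −0.74. The 13 genes share 1 genome, so they are not independent of each other. Their summed level was 9424 to 10841 CPM in Control livers and 11361, 5571, 8517 and 8728 CPM in Whole Egg fish 1 to 4. Their median log2 difference was −0.22, with 12 of 13 below 0 and 0 at an unadjusted p under 0.05 in edgeR. Of all 13379 genes tested, 6133 had a log2 difference below 0. Whole Egg-2, the liver with the lowest sum, was also the one with the most ovary marker RNA, and the part of that RNA in the result was not tested. Without Whole Egg-2, all 13 r were again below 0, from −0.94 to −0.18, and the median was −0.64. Other fish were not left out for this list. Of the lists described below, the proton gradient and ATP synthase genes had a negative r in 18 of 19 (median −0.52). The mitochondrial redox defence genes had one in 10 of 12 (median −0.53), and the fatty acid oxidation genes in 14 of 22 (median −0.09).

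**Figure D4:**
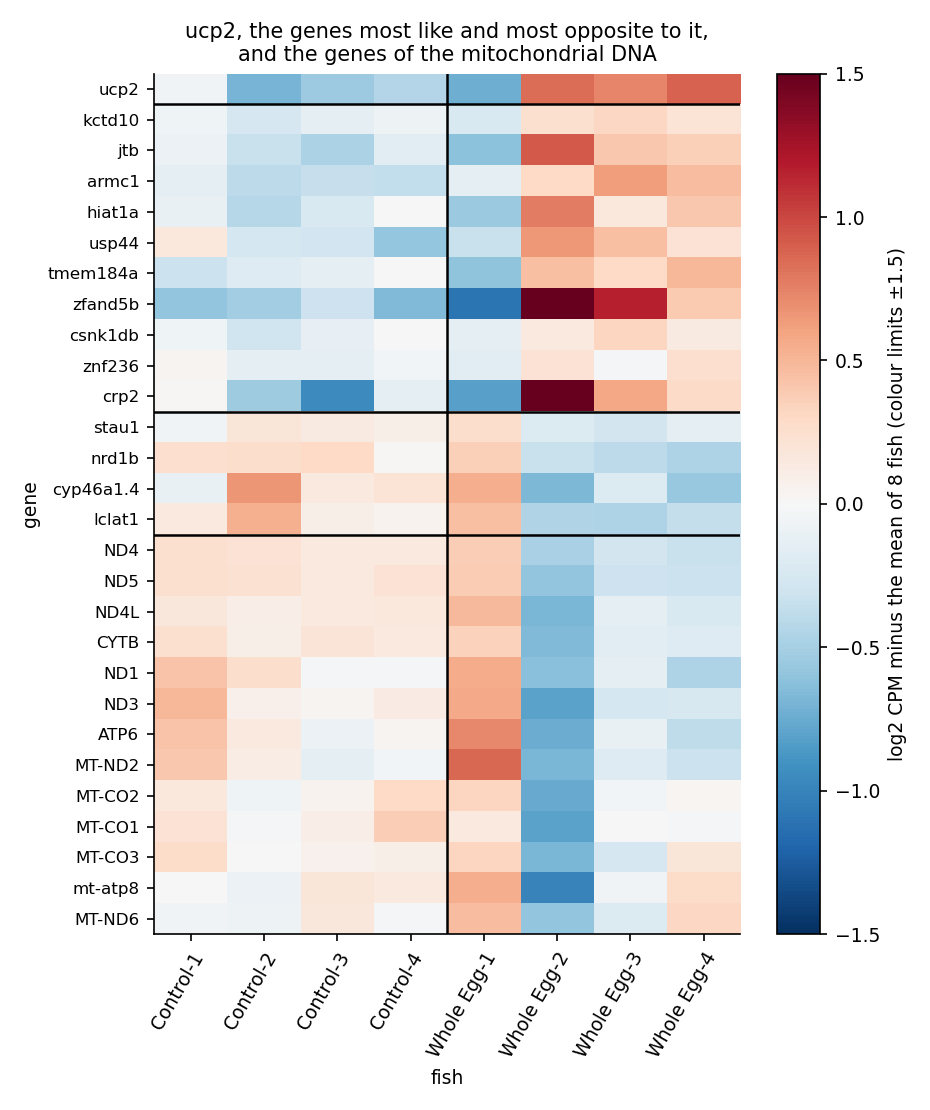
Log2 CPM minus the mean of the 8 fish for ucp2, the 10 genes with the highest and the 5 with the lowest r with ucp2, and the 13 genes of the mitochondrial DNA, of which ND4 is shown once. Columns are fish of the Control (left) and Whole Egg (right) diet, and colors saturate beyond 1.5 log2 units. The column of Whole Egg-1 has the opposite colors to those of the other 3 Whole Egg fish in most rows.

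The pathway around the uncoupling proteins was examined through lists of genes, set beside all 13379 genes tested. The median log2 difference of all genes tested was 0.04, with 6133 of them below 0. Listed genes were left untested where their symbol had no match or their reads were too few. No member of any list had an adjusted p under 0.1 in edgeR, and the counts below use an unadjusted p under 0.05, which 2.54% of all genes reached in the higher and 1.36% in the lower direction. Among the listed relatives of the uncoupling proteins in the SLC25 carrier family, 4 of 9 were tested and 0 passed, with a median log2 difference of −0.38. slc25a5, an ADP/ATP carrier gene, had 1416 to 2893 CPM in Control livers and 1200 to 2145 CPM in Whole Egg livers, with a log2 difference of −0.41 ± 0.30 (SE). slc25a11, the oxoglutarate carrier gene, had −0.36 ± 0.22 (SE), and slc25a14, whose mammalian protein is also called UCP5, had 0.37 ± 0.39 (SE). slc25a27, the counterpart of mammalian UCP4, had 0.263 to 1.99 CPM, with its highest values in Control-2 and Whole Egg-1, and an r of −0.85 with ucp2.

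Of the regulators of uncoupling protein genes, 19 of 28 were found by symbol, and all 19 were tested. Of these, 0 were higher and 1 was lower at an unadjusted p under 0.05. That gene was rxraa, a retinoid X receptor that pairs with the PPARs, with 6.81 to 9.12 CPM in Control livers and 3.47 to 6.45 CPM in Whole Egg livers. The diets did not overlap for rxraa, as for 2.14% of all genes tested. Its log2 difference was −0.65 ± 0.25 (SE, adjusted p = 0.810 in edgeR). rxrga, another retinoid X receptor gene, had −0.68 ± 0.32 (SE), and thrb, a thyroid hormone receptor gene, had −0.36 ± 0.22 (SE).

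Fatty acids feed the respiratory chain and activate uncoupling proteins in mammals. Of the fatty acid oxidation genes, 22 of 25 were tested, 21 had a log2 difference below 0, and 0 passed an unadjusted p under 0.05 in edgeR, with a median of −0.35. hadh and acads, dehydrogenases of the mitochondrial pathway, had −0.47 ± 0.25 (SE) and −0.52 ± 0.30 (SE). The PPAR alpha targets outside oxidation had 6 of 12 members tested, 0 at an unadjusted p under 0.05 and a median of 0.24. txnipa, a thioredoxin-binding protein gene, had a log2 difference of 1.82 ± 1.01 (SE), and 443 CPM in Whole Egg-3 against 15.1 to 68.3 CPM in the other fish. g0s2, a lipase inhibitor gene, had 0.77 ± 0.69 (SE), and plin2, a lipid droplet coat gene, had 0.30 ± 0.46 (SE). The list's sum was 149.6, 77.5, 612 and 125 CPM in Whole Egg fish 1 to 4, and most of it in Whole Egg-3 was txnipa.

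Of the mitochondrial redox defence genes, 12 of 13 were tested, and 0 were higher and 1 was lower at an unadjusted p under 0.05. That gene was gpx4a, which protects membrane lipids from peroxidation, and which the study took from the same 6 fish as ucp2. Its level was 385, 407, 322 and 357 CPM in Control fish 1 to 4 and 301, 159, 193 and 185 CPM in Whole Egg fish 1 to 4. The diets did not overlap, as for 2.14% of all genes tested, and Whole Egg-1 was again the fish nearest to the Control fish. By RT-PCR with more females added, and in males, the study found no difference in gpx4a between these diets. The log2 difference of gpx4a was −0.81 ± 0.25 (SE, adjusted p = 0.810 in edgeR), and its r with ucp2 was −0.89. prdx3, a mitochondrial peroxiredoxin gene, had −0.26 ± 0.19 (SE), and gsr, the glutathione reductase gene, had 0.33 ± 0.28 (SE).

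The genes of dicarboxylate and glutamine metabolism had 13 of 22 members tested, 0 at an unadjusted p under 0.05 in edgeR and a median log2 difference of −0.15. slc25a12, an aspartate-glutamate carrier gene, had 0.83 ± 0.40 (SE), me3, a malic enzyme gene, had 1.21 ± 0.69 (SE), and gls2a, a glutaminase gene, had −1.29 ± 0.83 (SE). The high mean of me3 rested on Whole Egg-2, with 11.1 CPM against 0.934 to 2.54 CPM in the other fish. slc25a12 too was highest in Whole Egg-2, with 14.1 CPM against 2.68 to 7.23 CPM in the other fish. gls2a was highest in Control-2, with 9.06 CPM against 0.348 to 3.85 CPM in the other fish. The genes of the proton gradient and ATP synthase had 19 of 21 members tested, 17 of them below 0 and 0 at an unadjusted p under 0.05, with a median of −0.26. atp5po, a stalk subunit of ATP synthase, had −0.38 ± 0.24 (SE), cyc1, cytochrome c1, had −0.33 ± 0.21 (SE), and ndufs3, a complex I subunit, had −0.31 ± 0.22 (SE). In the 6 fish left when Control-4 and Whole Egg-1 were dropped, the median of these genes was −0.26 and that of the fatty acid oxidation genes −0.32. At an unadjusted p under 0.05 in edgeR, 0 of 18 and 3 of 22 genes were lower there, against 2.44% of all genes. In the same fish 3 of 4 tested leukocyte and macrophage markers were lower. Of the ovary markers, 3 of 3 tested were higher, against 296 of all 8195 genes.

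**Figure D5:**
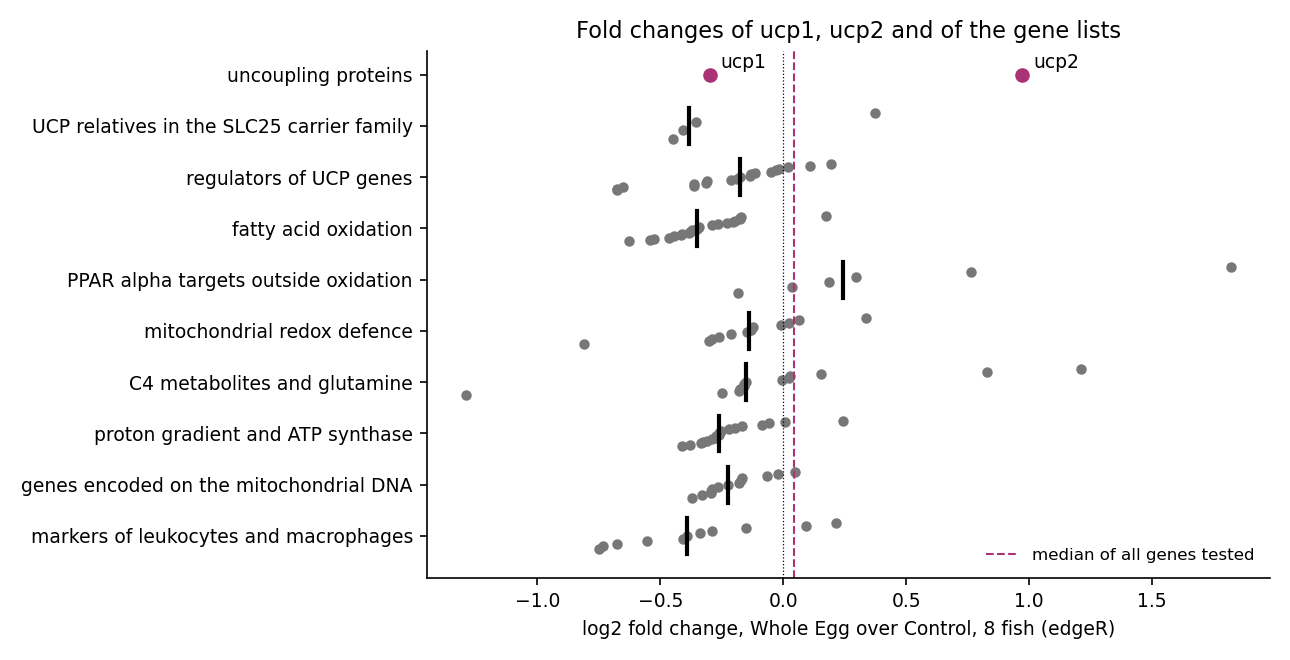
Log2 fold change, Whole Egg over Control, of ucp1 and ucp2 and of each tested member of the lists (points), with each list's median (bar) and the median of all genes tested (dashed line, 0.04). ucp2, at 0.97, lies to the right of every list median, and the medians of 8 of the 9 lists lie below 0.

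The leukocyte and macrophage markers were set beside ucp2, and their part in its level was not tested. Of 16 markers, 11 were tested, and 0 were higher and 2 were lower on the Whole Egg diet at an unadjusted p under 0.05, namely csf1ra, the receptor of a macrophage growth factor, and lcp1, a leukocyte plastin gene. Their summed level was 41.6, 34.8, 50.8 and 32.2 CPM in Control fish 1 to 4 and 35.3, 25.2, 23.5 and 31.3 CPM in Whole Egg fish 1 to 4. Whole Egg-1 had the highest of the Whole Egg sums. The 11 markers tested had a median r of −0.23 with ucp2 over the 8 fish, and 6 of them had a negative r. csf1ra had the lowest r of the list, −0.87, and ptprc the highest, 0.30. Among the other markers, red blood cell genes summed to 35.2 to 59.6 CPM in Control livers and to 30.1, 49.9, 68.7 and 76.1 CPM in Whole Egg fish 1 to 4, with a median r of 0.59 with ucp2. Ovary genes had a median r of 0.61 with ucp2. All 8 ovary genes tested had a log2 difference above 0, with 2 at an unadjusted p under 0.05 in edgeR. Their sums were 12.7, 28.7, 28.2 and 3.64 CPM in Control fish 1 to 4. In Whole Egg fish 1 to 4 they were 3.69, 416, 49.7 and 17.1 CPM. All 4 endothelial genes tested had a log2 difference below 0, with a median r of −0.58 with ucp2, as had 10 of 11 hepatocyte genes, with a median r of −0.48. Of all 13379 genes tested, 7246 had a log2 difference above 0 and 6133 below 0. The part of these cell types in the ucp2 values was not tested.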

How the data were processed

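Reads were trimmed with Trimmomatic 0.36 and mapped to the zebrafish genome GRCz11 with STAR 2.5.2b by the authors, whose deposited files hold raw read counts of 32520 Ensembl genes per fish, neither normalized nor filtered. Reads that mapped to several places (33.9% to 37.9% of reads) were not counted on genes. Of the count columns, the one for the library's strand was used, which held 97.7% to 98.1% of the counts of both strands. No 2 libraries agreed within counting noise (28 pairs, lowest chi-square per degree of freedom 35.2).

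Tests were run in R 4.3.3 with edgeR 4.0.16 (TMM, quasi-likelihood test, Benjamini-Hochberg adjustment over all genes tested) and, as an alternative, DESeq2 1.42.0. Genes were filtered with filterByExpr, or, in the set of 6 fish from which the study took ucp2, at 30 counts in every fish with a log2 fold change beyond 0.8. The threshold was an adjusted p under 0.1. Log2 CPM had a prior count of 2, and log2 ratios of reads had a pseudocount of 0.5. The SE of a log2 fold change was derived from the edgeR test, as its absolute value divided by the square root of the F statistic. The tests were checked on simulated data.

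The uncoupling proteins and the gene lists were chosen with earlier results of these data known. Named genes were the uncoupling proteins, rpl13a, the 3 members of each list with the smallest p (1 of them is not reported here), slc25a14, slc25a27, the 10 genes with the highest and the 5 with the lowest r with ucp2 and the 3 with the highest r with ucp1. Genes of the mitochondrial DNA, the neighbors of ucp2 and the markers csf1ra and lcp1 were named after their values were seen. Symbols were found for 29230 of 32520 identifiers, and 173 of 221 listed symbols matched. The planned order of the 3 genes by level per length was not tested, since no transcript lengths were used here. p-values treat each fish as a replicate.

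The alternatives were DESeq2, RLE and upper quartile normalization, counts without regard to strand, other filters, a replicate block and leaving out each fish in turn. DESeq2 with the block and the leave-one-out of the correlations, also without Whole Egg-2 for the mitochondrial DNA, were chosen after seeing the data.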

Additional observations from a re-analysis of the deposited data

Results flagged for a closer look

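In groups of 4 fish, 15 of 126 values examined had 1 fish set apart from the other 3 of its diet by more than 0.829 of the group's range. Chance gives this in about 1 in 20 groups of independent, normally distributed values. Many values examined were genes picked for their r or p, and some were sums that hold such genes. The count of 15 therefore cannot be read against that rate. For ucp2 the fish set apart was Whole Egg-1, at 5.80 CPM against 16.1 to 17.9 CPM. Whole Egg-1 also stood apart for nrd1b, at 7.28 CPM against 4.10 to 4.48 CPM, for lclat1, at 12.1 CPM against 6.44 to 6.93 CPM, and for slc25a27, at 1.97 CPM against 0.263 to 0.542 CPM. nrd1b and lclat1 were picked for their correlation with ucp2, whose values hold the same fish.

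Whole Egg-3 stood apart for txnipa, at 443 CPM against 17.9 to 42.1 CPM, for g0s2, at 52.1 CPM against 5.44 to 13.2 CPM, and for the summed PPAR alpha targets that hold both genes, at 612 CPM against 77.5 to 149.6 CPM. Whole Egg-2 stood apart for me3, at 11.1 CPM against 0.934 to 2.35 CPM, and for the summed ovary markers, at 416 CPM against 3.69 to 49.7 CPM.

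Among the Control fish, Control-2 stood apart for the summed intestine markers, at 98.7 CPM against 0.549 to 5.51 CPM, for lclat1, at 12.9 CPM against 9.21 to 9.83 CPM, and for slc25a27, at 1.99 CPM against 0.756 to 0.879 CPM. Control-4 stood apart for nrd1b, at 5.71 CPM against 6.76 to 6.94 CPM, and for the summed skeletal muscle markers, at 0.894 CPM against 0.0549 to 0.181 CPM. Control-1 stood apart for armc1, at 5.99 CPM against 5.08 to 5.23 CPM.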

How the results depend on the processing

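In the 8 fish, the log2 difference of ucp2 stayed positive and short of an adjusted p of 0.1 under all 16 alternatives (0.84 to 1.22), and that of ucp1 stayed short of it under all 16 and negative under 15. ucp1 turned to 0.10 without Control-2 (range with each fish left out −0.58 to 0.10), and among the 6 fish left when Control-4 and Whole Egg-1 were dropped (the first set) it turned to 0.26 without Control-2 (range −0.85 to 0.26). In the first set ucp2 had 1.28 with DESeq2 and passed the threshold there, against 1.16 to 1.46 in edgeR with each fish left out. In the second set, with Control-2 and Whole Egg-2 dropped, it ran from 0.50 to 1.13. DESeq2 called 60 genes in the first set and 2 in the second, against 0 in edgeR. The difference between diets in the log2 ratio of ucp2 to rpl13a was 1.71 without Whole Egg-1 (range with each fish left out 0.861 to 1.71). For the log2 ratio of ucp2 to ucp1, the difference between diets ran from 0.70 to 1.75, all above 0. The 10th highest r with ucp2 was 0.905 as Spearman's rho, 0.903 after subtraction of diet means and 0.877 to 0.923 with each fish left out. The list medians kept their sign under RLE, upper quartile and the block, while the median of all genes moved from 0.04 to −0.04 with upper quartile normalization. The alternatives planned for the order of levels by gene length, and for the pairs with ucp3, were not run. The causes were not tested.

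The sources used here do not say what the fish numbers stand for. The deviations of same-numbered fish from their diet means correlated by 0.0787 to 0.451, and 6 of 8 fish correlated best with their own number. With the number as a replicate block, ucp2 in the 8 fish had 0.89 ± 0.40 (SE, edgeR adjusted p = 0.740), edgeR called 6 genes in the first set, and DESeq2 called 20, 104 and 24 genes in the 8 fish, the first and the second set. ucp1 and ucp2 were not among the genes called under the block, and in the first set ucp2 had an adjusted p of 0.258 in DESeq2 with the block, so that its DESeq2 call was lost. The ucp2 counts of 104 to 593 reads limit precision less than the spread between all fish of a diet. For ucp3, a level too low for this depth and no expression cannot be told apart.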
